A study of Mus musculus with 16 samples.

Results

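Heart side population cells were compared with cardiomyocytes on 4 of the 16 mouse arrays of the study, 2 arrays of each cell type, chosen by their sample titles alone. The study set progenitor cells of the heart and the bone marrow against cardiomyocytes, and its other 12 arrays held heart c-kit cells, heart Sca1 cells (gated to lack CD45 and CD31), marrow c-kit cells and marrow mesenchymal stem cells (3 arrays each). All came from C57BL/6 mice of a genotype given as normal, with no treatment, time or age stated in the labels. The side population was isolated by its efflux of a Hoechst dye, and the cardiomyocytes by a brief slow centrifugation with no sort by a surface marker. The labels give a Matrigel and mTeSR culture protocol for every sample of both groups and do not say how many animals or cells went into an array. Nothing in them says whether the arrays of a group came from separate animals, so the p-values below measure the spread between arrays, which may be technical.

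Side population cells are a minority of cells that keep little of a DNA-binding dye. Membrane pumps of the ABC transporter family, such as Abcg2, export it. The gate selects a behaviour rather than a lineage, and cardiac side populations are known to hold endothelial, stromal and haematopoietic cells in varying parts. Cardiomyocytes are the contractile cells of the heart and are marked by sarcomere proteins such as cardiac troponin I (Tnni3).

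The arrays stood apart in brightness before any comparison. The median spot intensity was 15 and 22 scanner units on the side population arrays, against 99 and 200 on the cardiomyocyte arrays, and 13.8% and 9.93% of side population probes carried a repeated fill value in place of an intensity, against 4.55% and 3.38% of cardiomyocyte probes. Levels below are log2 values after quantile normalisation, which gives every array the same distribution, and intensities are the unscaled scanner units. Across genes, which are not independent replicates, the side population arrays correlated with each other at r = 0.748. Each lay closer to the heart Sca1 arrays (0.757 to 0.776) and about as close to the cardiomyocyte arrays (0.748 to 0.762), while the 2 cardiomyocyte arrays correlated at 0.894. In bulk RNA, fewer cells of a type and less RNA per cell cannot be told apart.

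The side population had more of several secreted factors, of the protease inhibitor Timp1 and of haem oxygenase, and less of many sarcomere, endothelial and macrophage transcripts than the cardiomyocyte preparation. Of 17710 genes tested, limma called 916 (5.17%) at an adjusted p under 0.05. Of these, 334 were higher (1.89% of the genes tested) and 582 lower (3.29%) in the side population. In all 916 the arrays of the 2 groups did not overlap, which was so for 8020 genes overall (45.3%). The calls rest on a spread shared by all 16 arrays. With the 4 compared arrays alone limma called 0 genes, where 2236 lay under 0.05 before adjustment and 0.153 was the smallest p after it. With array medians aligned in place of quantile normalisation, the median log2 difference of all genes moved from 0.06 to 1.34, and 2386 genes were called higher and 231 lower.

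**Figure D1:**
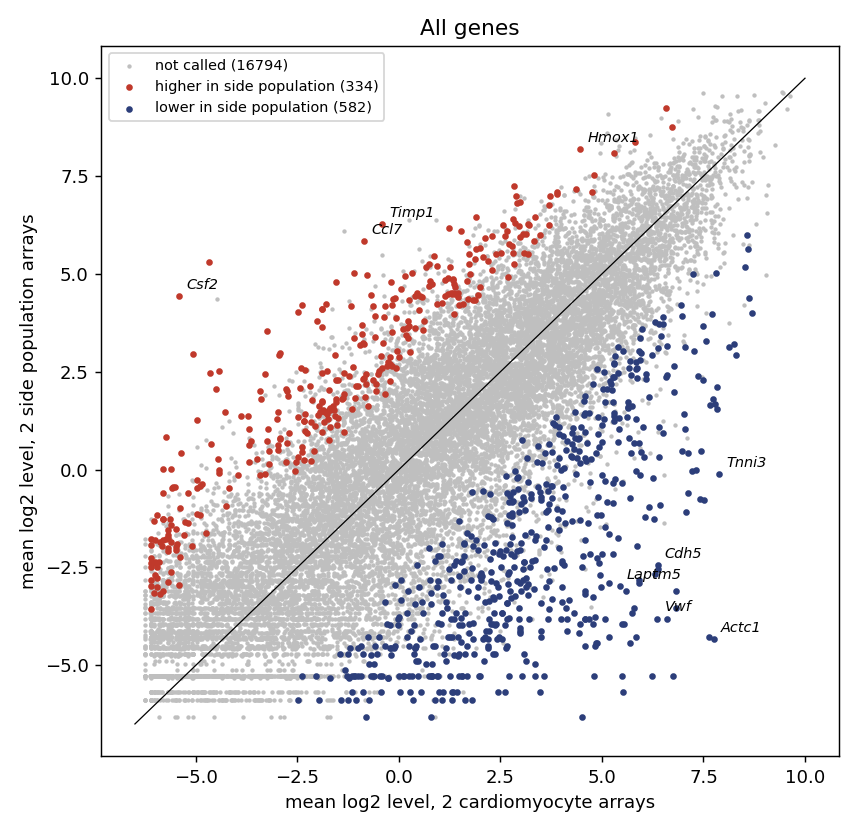
Mean quantile normalised log2 level of each gene on the 2 side population arrays (vertical axis) against the 2 cardiomyocyte arrays (horizontal axis), with the line of equal level. Of 17710 genes, 334 were called higher (red) and 582 lower (blue) in the side population, and many of the lower ones lie near the floor of the side population arrays.

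The lower calls were mostly genes that were bright in cardiomyocytes and dim in the side population. Of the 582 lower genes, 491 had an intensity under 100 or a fill value on both side population arrays, and 507 had at least 100 on both cardiomyocyte arrays. Of the 334 higher genes, 173 had at least 100 on both side population arrays, and 221 were brighter there than on either cardiomyocyte array even before scaling. Only 871 of all genes were brighter in that unscaled sense. A fill value on both arrays of a group was found for 40 of the lower genes (in the side population) and for 8 of the higher genes (in cardiomyocytes), and no fold is given for these.

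Timp1, an inhibitor of matrix metalloproteinases, had intensities of 4828 and 6786 on the side population arrays, against 56 and 305 on the cardiomyocyte arrays. Both side population arrays were high and alike after scaling, with a level of 6.27 ± 0.03, against -0.42 ± 1.56 in cardiomyocytes (SD, n = 2 each). The log2 difference was 6.69 ± 0.98 (SE, limma adjusted p = 0.00199). Csf2, the colony stimulating factor for granulocytes and macrophages, read 368 and 3583 in the side population, against a fill value and 9 in cardiomyocytes. Its 2 side population arrays differed from each other but both lay far above the cardiomyocytes, and the log2 difference was 9.84 ± 1.37 (adjusted p = 0.00146), uncertain in size because 1 cardiomyocyte value is a fill. Tnni3, which inhibits contraction between beats, read 13 and 25 in the side population, against 4214 and 27605 in cardiomyocytes. The groups lay far apart on every array, and Tnni3 fell by 8.003 ± 0.66 on the log2 scale (adjusted p = 4.05e-05). The 3 genes kept their calls when any 1 of the 4 arrays was left out.

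The first 250 bases upstream of the RefSeq start of Timp1 and Tnni3 (build GRCm38.p6) are shown because both genes were given as markers for this comparison. Timp1 was also bright in the other heart progenitors. Timp1 lies on the plus strand at chrX:20869916-20870165 and Tnni3 on the minus strand at chr7:4522529-4522778, each given 5′ to 3′ in the direction of its gene.
Timp1: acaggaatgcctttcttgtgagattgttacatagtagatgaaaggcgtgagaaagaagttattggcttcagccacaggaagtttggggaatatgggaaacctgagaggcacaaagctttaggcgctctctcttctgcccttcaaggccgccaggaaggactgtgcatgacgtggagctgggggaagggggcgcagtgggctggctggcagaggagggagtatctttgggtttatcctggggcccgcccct
Tnni3: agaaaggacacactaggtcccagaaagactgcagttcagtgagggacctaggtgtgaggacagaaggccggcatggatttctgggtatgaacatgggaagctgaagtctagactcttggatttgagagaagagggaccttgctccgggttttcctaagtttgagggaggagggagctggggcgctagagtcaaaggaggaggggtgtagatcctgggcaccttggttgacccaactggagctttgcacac
Neither stretch held, on either strand, an AP-1 motif (TGANTCA, in 6.75% of 32851 promoters of this length), an NF-kB motif (1.21%), a MEF2 motif (3.20%) or a CArG box (1.47%). Of the 10 genes with the highest log2 difference, 9 had a promoter among those searched, and 0 of these 9 promoters held any of the motifs. A match or its lack describes these letters only.

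Among 26 cytokines, chemokines and colony stimulating factors measured, 6 were called higher and 0 lower, against 1.89% of all genes called higher, and the list's median log2 difference was 0.82, against 0.06 over all genes. Ccl7, a chemokine that draws monocytes, read 2757 and 5702 in the side population, against 28 and 280 in cardiomyocytes, with a log2 difference of 6.69 ± 0.94 (adjusted p = 0.00153). Its relative Ccl2 read 6504 and 11049 in the side population, against 222 and 1829, with a difference of 3.90 ± 0.72 (adjusted p = 0.0089). Every side population array was brighter than every cardiomyocyte array for both chemokines, even unscaled. Csf1, the growth factor of macrophages, read 4233 and 7298 in the side population, against 408 and 1967 (log2 difference 2.54 ± 0.56, adjusted p = 0.022).

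Lif, which keeps mouse embryonic stem cells undifferentiated, was dimmer, at 154 and 502 in the side population, against 11 and 65 in cardiomyocytes, with a log2 difference of 5.86 ± 1.11 (adjusted p = 0.00979). The sixth call, the chemokine Ccl20, rests on spots of 9 and 11 in the side population, against 5 and a fill value, which is near the bottom of every array. Other members were as bright or brighter on the side population arrays without being called. The neutrophil chemokine Cxcl1 read 26800 and 29831 in the side population, against 13862 and 30193 in cardiomyocytes (log2 difference -0.21, adjusted p = 0.92). Il33, an alarmin, read 2295 and 6479, against 170 and 1667 (3.30 ± 2.18, adjusted p = 0.42). Without cardiomyocyte replicate 1, 2 of the 26 members were called, and Lif (adjusted p = 0.0835), Ccl2 (0.08), Csf1 and Ccl20 were not. Without cardiomyocyte replicate 2 there were 4, with Csf1 and Ccl20 lost, and Ccl20 was lost without either side population array as well. The highest adjusted p was 0.106 for Csf1 and 0.177 for Ccl20.

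**Figure D2:**
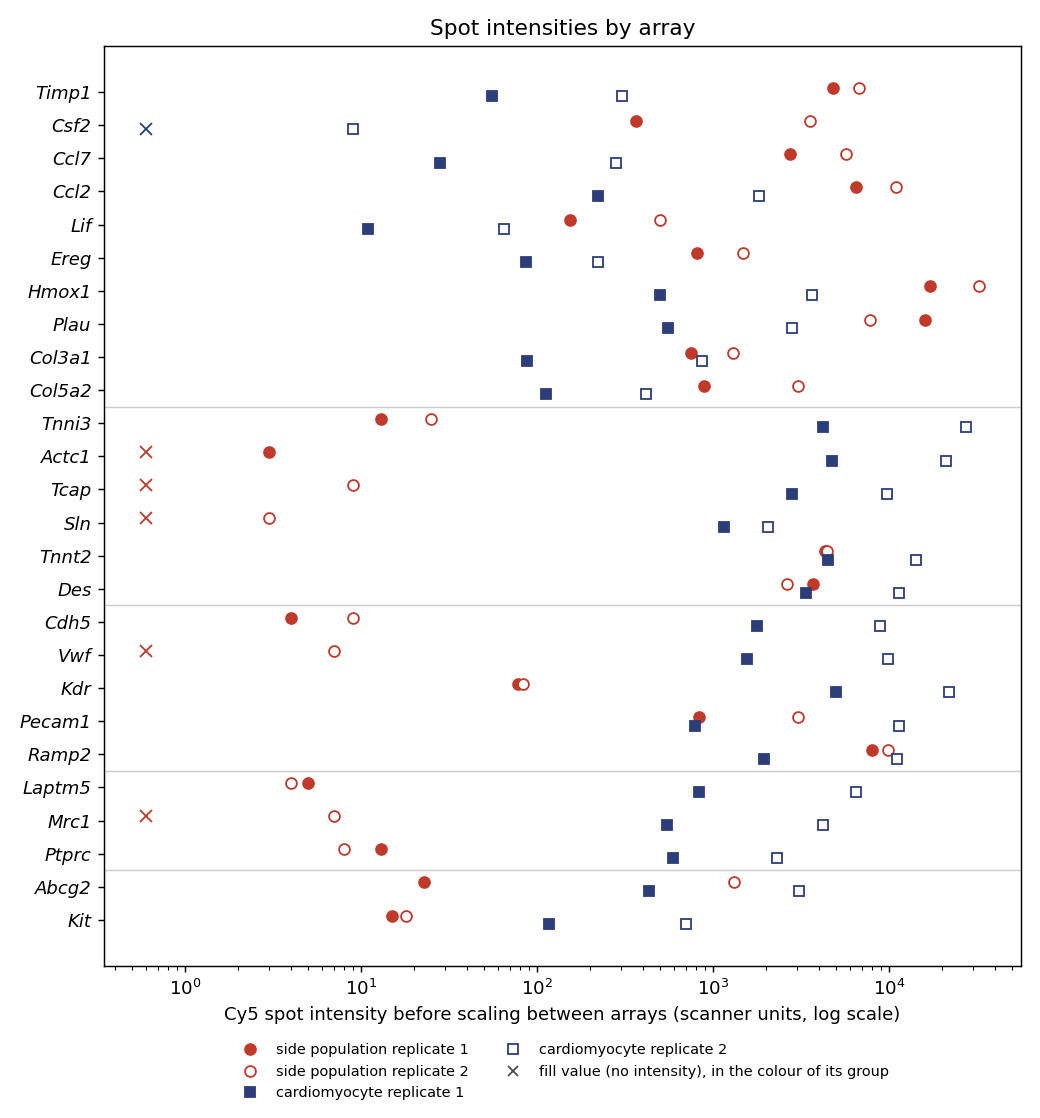
Unscaled Cy5 spot intensity (scanner units, log axis) of 26 genes on the 2 side population arrays (circles) and the 2 cardiomyocyte arrays (squares), with crosses for fill values. Timp1, Csf2, Ccl7, Ccl2 and Hmox1 are brighter on both side population arrays than on either cardiomyocyte array, and Tnni3, Actc1, Tcap, Cdh5, Vwf and Laptm5 lie at or below 25 in the side population.

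Among growth factors, Ereg (epiregulin), a ligand of the EGF receptor, read 816 and 1493 in the side population, against 87 and 222 in cardiomyocytes, with no overlap and a log2 difference of 4.52 ± 0.83 (adjusted p = 0.00884). Pdgfb, the platelet-derived growth factor of endothelial cells, read a fill value and 1 in the side population, against 955 and 6069, and fell by 11.21 ± 1.65 (adjusted p = 0.00211). These were the only calls, 1 higher and 1 lower, among 20 growth factors, against 1.89% and 3.29% of all genes. The call for Ereg was lost without cardiomyocyte replicate 1 (adjusted p = 0.0665).

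Among 21 metalloproteinases, plasminogen activators and their inhibitors, 2 were called higher (Timp1 and Plau) and 1 lower (Timp4), against 1.89% and 3.29% of all genes. The list's median was 1.02. With medians aligned, 9 were called higher and 0 lower, where 2386 and 231 of all 17710 genes were. Plau, the urokinase that activates plasminogen, read 16088 and 7781 in the side population, against 556 and 2807, with a difference of 2.81 ± 0.70 (adjusted p = 0.0351). Timp4, an inhibitor known for its expression in heart muscle, read 2 and 7 in the side population, against 225 and 2010 (-6.09 ± 1.61, adjusted p = 0.0445). These inhibitors were called in opposite directions, and their relative Timp3 was bright in both groups at 55285 and 65450, against 17228 and 65449, with 1 spot of each group at the scanner's upper limit. The call for Plau was lost without side population replicate 1 or either cardiomyocyte array (highest adjusted p = 0.139), and that for Timp4 without any 1 of the 4 arrays (highest adjusted p = 0.204).

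Hmox1, the oxygenase that breaks down haem, was among the brightest genes called higher, at 17229 and 32482 in the side population, against 498 and 3669 in cardiomyocytes. No array overlapped, and the log2 difference was 3.73 ± 0.60 (adjusted p = 0.00365), with a call in every fit that left out 1 array. It was the only one of 16 NRF2 and metal response genes to be called, against 1.89% of all genes called higher. Of the 16, 12 had a positive difference, and the list's median was 1.54. With medians aligned, 7 of the 16 were called higher, where 2386 of all 17710 genes were. The metallothionein Mt1 read 14791 and 21356, against 757 and 9835 (2.12 ± 0.80, adjusted p = 0.14), and the glutathione synthesis gene Gclc read 329 and 542, against 137 and 593 (2.05 ± 0.62, adjusted p = 0.069).

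Genes of fibroblasts and extracellular matrix were bright in the side population. Of 25 measured, 24 had an intensity of at least 100 on each side population array, against 22 and 25 on the cardiomyocyte arrays, and 20 had a positive difference, with a median of 1.21. Only 2 passed the test, both higher, against 1.89% of all genes called higher, and both were chains of fibrillar collagens. Col5a2 read 890 and 3063 in the side population, against 113 and 419 in cardiomyocytes (4.05 ± 1.05, adjusted p = 0.0402), and Col3a1 read 755 and 1305, against 88 and 866 (3.20 ± 0.83, adjusted p = 0.0418). The side population arrays were the higher ones for both collagens, though for Col3a1 side population replicate 1 was dimmer than cardiomyocyte replicate 2 before scaling. Neither call was stable. That for Col5a2 was lost without any 1 of the 4 arrays (highest adjusted p = 0.185), and that for Col3a1 without either side population array or cardiomyocyte replicate 1 (highest adjusted p = 0.277).

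Matrix genes that were not called included some of the brightest of the side population. The proteoglycan decorin (Dcn) read 42098 and 51397 in the side population, against 5120 and 34540 in cardiomyocytes (0.94 ± 0.95, adjusted p = 0.62). The stromal gene Pi16 read 19837 and 24356, against 1846 and 16552 (1.21 ± 0.70, adjusted p = 0.35). The receptor Pdgfra, a common marker of cardiac fibroblasts, split the side population, at 5550 on replicate 1 and 33 on replicate 2, against 2730 and 13238 (-3.59 ± 1.38, adjusted p = 0.15). Col1a1 split it the other way, at 6 and 569, against 345 and 1652 (-2.65 ± 1.23, adjusted p = 0.24). With medians aligned, 18 of the 25 were called higher, where 2386 of all 17710 genes were. The list's median then stood 3.17 above that of all genes.

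**Figure D3:**
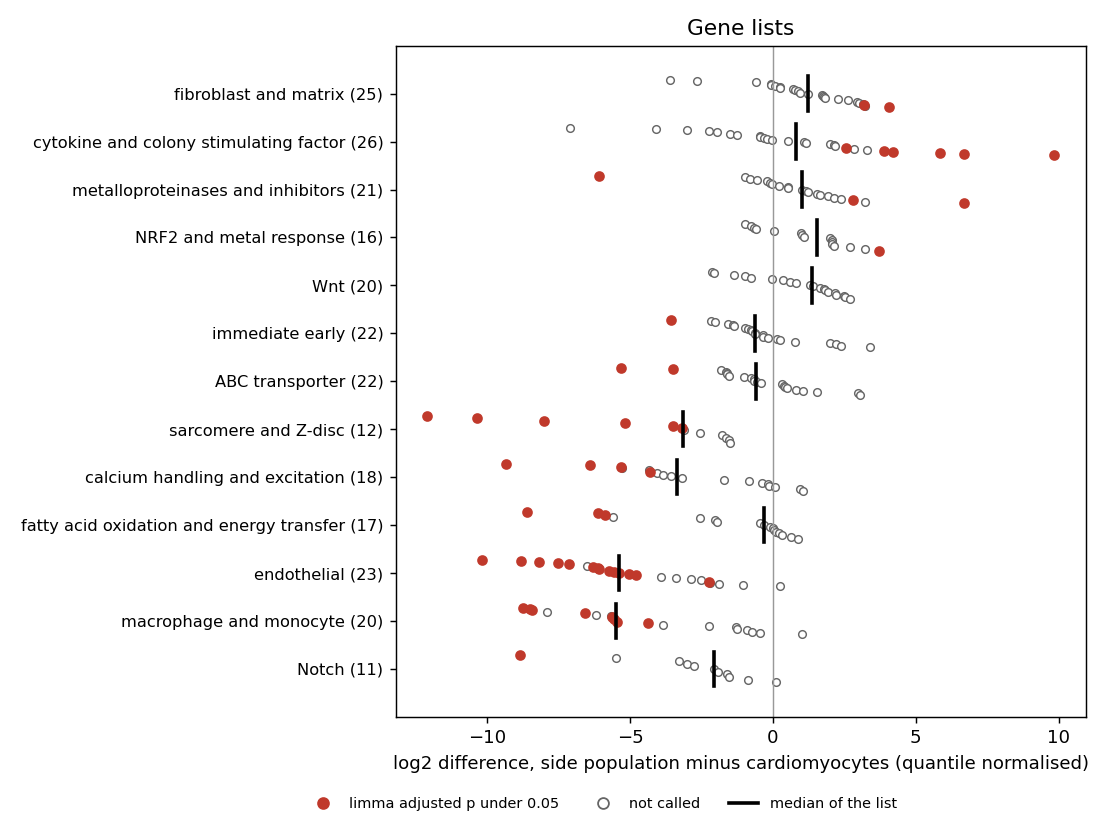
Log2 difference, side population minus cardiomyocytes, of every measured member of 13 gene lists (number measured in brackets), with called genes filled and the median of each list as a bar. The sarcomere, endothelial and macrophage lists lie mostly below 0 (medians -3.15, -5.37 and -5.48), and the fibroblast list mostly above it (1.21).

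The highest differences beside those of the secreted factors belonged to genes of no common list. Papolb, a poly(A) polymerase known from the testis and a near copy of Papola, so that its reading is uncertain, had 2174 and 3008 in the side population, against a fill value and 20 (9.98 ± 1.79, adjusted p = 0.00751). Scd3, a stearoyl-CoA desaturase, had 496 and 162, against 10 and a fill value (8.01 ± 1.09, adjusted p = 0.0013), and Sez6l, a membrane protein of neurons, had 268 and 121, against 6 and 10 (7.11 ± 1.11, adjusted p = 0.00299). These 3 were low on both cardiomyocyte arrays, and Scd3 and Sez6l were called in every fit that left out 1 array, while Papolb was not without cardiomyocyte replicate 1 (adjusted p = 0.0756).

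The other highest genes depended on single arrays or probes. Arnt2, a partner of bHLH-PAS transcription factors, had 81 and 449 in the side population, against 8 and 10 (6.94 ± 1.53, adjusted p = 0.0212). Scin, which severs actin filaments, had 848 and 281, against 1 and 145 (6.80 ± 1.60, adjusted p = 0.0278), with a difference of 3.27 on its other probe. The unnamed transcript 9130008F23Rik had 1814 and 461, against 15 and 89 (6.61 ± 1.52, adjusted p = 0.0251). Hivep3, a zinc finger protein, had 6 and 719, against 2 and 3 (6.56 ± 1.58, adjusted p = 0.0311), so that 1 of its 2 side population spots was almost as dim as the cardiomyocyte spots, and its other probes differed by 0.55 to 2.32. The calls for Arnt2 and Hivep3 were lost without side population replicate 2 or either cardiomyocyte array (highest adjusted p = 0.0948 and 0.14). That for 9130008F23Rik was lost without side population replicate 1 or either cardiomyocyte array (0.138), and that for Scin without side population replicate 1 or cardiomyocyte replicate 1 (0.199). Among the 8 higher genes with a fill value on both cardiomyocyte arrays, the 5 brightest (Ngef, Rhox10, Agr3, Tmprss11f and Trap1a) had only 3 to 12 scanner units in the side population. Each lost its call without at least 1 side population array and without either cardiomyocyte array (highest adjusted p from 0.08 for Ngef to 0.17 for Tmprss11f).

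Sarcomere genes were lower in the side population, some close to nothing and others not. Of 12 measured, 6 were called lower and 0 higher, against 3.29% of all genes called lower, all 12 had a negative difference, and the median was -3.15. Actc1, the actin of the cardiac thin filament, read 3 and a fill value in the side population, against 4726 and 21059 in cardiomyocytes, and fell by 12.09 ± 1.74 (adjusted p = 0.00188). Tcap, the titin cap of the Z-disc, read a fill value and 9, against 2830 and 9816, and fell by 10.36 ± 1.35 (adjusted p = 0.000904). Tnnc1, the calcium-binding troponin, was lower but present, at 115 and 201, against 3453 and 19033 (-5.18 ± 0.99, adjusted p = 0.01). The muscle LIM protein Csrp3 and the Z-disc actinin Actn2 were the others called with Tnni3. Without a cardiomyocyte array, Tnnc1, Csrp3 and Actn2 lost their calls (highest adjusted p = 0.0621, 0.108 and 0.159), Csrp3 also without side population replicate 1 and Actn2 without either side population array. All 12 members had at least 100 units on both cardiomyocyte arrays, and 4 did on each side population array.

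Some muscle transcripts stayed bright in the side population. Tnnt2, the troponin that binds tropomyosin, read 4338 and 4452 in the side population, against 4538 and 14271 in cardiomyocytes (-1.50 ± 1.21, adjusted p = 0.52). Tpm1, a tropomyosin also made by other cell types, read 2245 and 2214, against 3912 and 8671 (-1.79 ± 1.03, adjusted p = 0.35). The intermediate filament Des, which smooth muscle cells and pericytes share, read 3719 and 2648, against 3400 and 11466 (-1.52 ± 0.70, adjusted p = 0.23). Tnnt2, Tpm1 and Des had at least 2214 units on every array of both groups. With medians aligned, the median of the sarcomere list stood 3.49 below that of all genes and 4 of the 12 were called lower, and without either cardiomyocyte array there were 3.

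The 250 bases upstream of Actc1 are shown because it had the lowest log2 difference among genes with a measured spot in each group. They lie on the minus strand at chr2:114052876-114053125 (RefSeq, GRCm38.p6) and hold a CArG box (in capitals), the letters that serum response factor binds in many muscle genes, 47 bases before the start.
Actc1: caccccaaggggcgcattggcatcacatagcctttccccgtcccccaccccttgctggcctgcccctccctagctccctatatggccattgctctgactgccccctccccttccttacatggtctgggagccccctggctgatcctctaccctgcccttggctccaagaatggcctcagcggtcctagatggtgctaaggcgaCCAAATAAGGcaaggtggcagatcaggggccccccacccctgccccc
The CArG search was added after these sequences were seen. Actc1 itself counts among the hits below, and a gene can add more than 1 promoter, so the shares are not a test. Across the sarcomere list, 4 of 17 promoters of 11 genes held the box (in Actc1, Ldb3 and Nebl), against 1.47% of the 32851 promoters searched. The loose MEF2 pattern was in 2 (in Ldb3 and Ttn), against 3.20%. The AP-1 motif was in as many, 2 of the 17 (in Ldb3), against 6.75%, and the NF-kB motif in 0. Ldb3, a Z-disc protein with 10 and 13 units in the side population, against 225 and 708 in cardiomyocytes, did not pass the test (-3.13 ± 0.88, adjusted p = 0.055), nor did Nebl and Ttn.

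Genes of calcium handling and excitation followed the same pattern in part, with 4 of 18 called lower and 0 higher, against 3.29% of all genes called lower, and a median of -3.37. The median was -1.56 without side population replicate 2 and -0.91 with medians aligned (-2.25 relative to all genes). Aligned medians gave 2 lower calls and 1 higher, where 231 and 2386 of all 17710 genes were called so. Sln (sarcolipin), an inhibitor of the sarcoplasmic calcium pump, read a fill value and 3 in the side population, against 1162 and 2050 in cardiomyocytes, and fell by 9.33 ± 0.99 (adjusted p = 0.000229). The potassium channel subunit Kcnj5 read 3 and a fill value, against 177 and 989 (-6.42 ± 1.44, adjusted p = 0.023). The gap junction protein Gja5 (connexin 40), shared by atrial muscle and arterial endothelium, read 34 and 71, against 1850 and 8943 (-5.32 ± 1.25, adjusted p = 0.028). The fourth call was the calcium-binding protein Hrc. Sln kept its call without any 1 array. Hrc lost it without side population replicate 1 or either cardiomyocyte array (highest adjusted p = 0.136), Kcnj5 without side population replicate 2 or either cardiomyocyte array (0.125) and Gja5 without any 1 of the 4 (0.113). Gja1 (connexin 43), by contrast, read 17366 and 24022 in the side population, against 5528 and 30881 (-0.14 ± 0.58, adjusted p = 0.92).

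Few heart muscle metabolism and stress genes were called. Nppa, the atrial natriuretic peptide, read 19 and 434 in the side population, against 5966 and 16887 in cardiomyocytes (-5.95 ± 1.30, adjusted p = 0.0204), and Ankrd1, a stretch-responsive protein, was at a fill value on both side population arrays, against 207 and 709. Ckmt2, the creatine kinase of heart mitochondria, read 1 and 9, against 600 and 2820 (-8.61 ± 1.73, adjusted p = 0.0139). Myoglobin (Mb) split the side population, at 9 and 1588, against 5280 and 19887 (-6.12 ± 1.56, adjusted p = 0.039). Its other probe differed by 0.05, and with the mean over probes the call was lost (-3.03, adjusted p = 0.152). Acsl1, which activates long-chain fatty acids, read 8 and 3, against 281 and 1677 (-5.89 ± 1.13, adjusted p = 0.0108), and the muscle form of a cytochrome oxidase subunit, Cox7a1, read 6 and 3, against 481 and 1027 (-6.37 ± 1.22, adjusted p = 0.0108).

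These were the only calls in their lists, 2 of 9 stress genes, 3 of 17 for fatty acid oxidation and energy transfer, and 1 of 18 for the respiratory chain. The last has 5.56% called, close to the 3.29% over all genes. The medians of the 3 lists were -0.58, -0.33 and -0.16, against 0.06 over all genes. With medians aligned they were 0.31, 1.61 and 3.05, against 1.34 over all genes. Relative to all genes, the aligned values were -1.03, 0.27 and 1.70, so the stress list stayed below. Nppa, Ckmt2 and Mb lost their calls without side population replicate 1 or either cardiomyocyte array (highest adjusted p = 0.106, 0.0754 and 0.192), Acsl1 without cardiomyocyte replicate 2 (0.0777) and Cox7a1 without cardiomyocyte replicate 1 (0.0804). None of 11 cardiac transcription factors was called. Hand2 read 474 and 502, against 54 and 353 (3.82 ± 1.37, adjusted p = 0.121), and Tbx20 read 5311 and 6195, against 383 and 2157 (2.58 ± 1.64, adjusted p = 0.403).

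Endothelial genes had the largest share of lower calls of the 31 lists, with 14 of 23 called lower and 0 higher, against 3.29% of all genes, and with 22 negative differences and a median of -5.37. Vwf, the clotting factor carrier, read a fill value and 7 in the side population, against 1574 and 9913 in the cardiomyocyte preparation, and fell by 10.17 ± 1.41 (adjusted p = 0.00146). Cdh5, the cadherin of endothelial junctions, read 4 and 9, against 1780 and 8940, and fell by 8.80 ± 1.71 (adjusted p = 0.0116). Robo4, a guidance receptor of endothelium, read 22 and 9, against 2947 and 20438 (-8.17 ± 1.74, adjusted p = 0.0181), and the VEGF receptor Kdr read 78 and 84, against 4996 and 21853 (-6.28 ± 1.34, adjusted p = 0.018). In each the groups were far apart on every array. With medians aligned, 5 of the 23 were called lower and 1 higher, where 231 and 2386 of all 17710 genes were. On the deposited values 8 were lower, where 458 of all genes were.

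The cardiomyocyte arrays carried these endothelial transcripts at high level. The mean level over the list was 1.12 and 1.13 on the side population arrays, against 5.87 and 6.22 on the cardiomyocyte arrays. In the side population 10 and 9 of the 23 members had at least 100 units, against 22 and 23 in cardiomyocytes. The part of endothelial RNA in the cardiomyocyte preparation in these calls was not tested. Some endothelial genes were bright in each group. Pecam1 (CD31) read 834 and 3062 in the side population, against 789 and 11490 (-1.05 ± 1.37, adjusted p = 0.715), and Ramp2, a receptor partner for adrenomedullin, read 7992 and 9911, against 1942 and 11112 (0.26 ± 0.72, adjusted p = 0.88). Without cardiomyocyte replicate 1 or 2, only 1 of the 23 was called lower in each fit, Vwf. The list's median was -5.49 and -5.12 there. Cdh5 and Kdr lost their calls in both fits (highest adjusted p = 0.071 and 0.0895), and Robo4 also without side population replicate 2 (0.0936). Eng (endoglin), called lower by 2.25 ± 0.56 (adjusted p = 0.0361), changed sign to 0.26 with medians aligned, where the median of all genes was 1.34. Its call was lost without side population replicate 2 or either cardiomyocyte array.

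**Figure D4:**
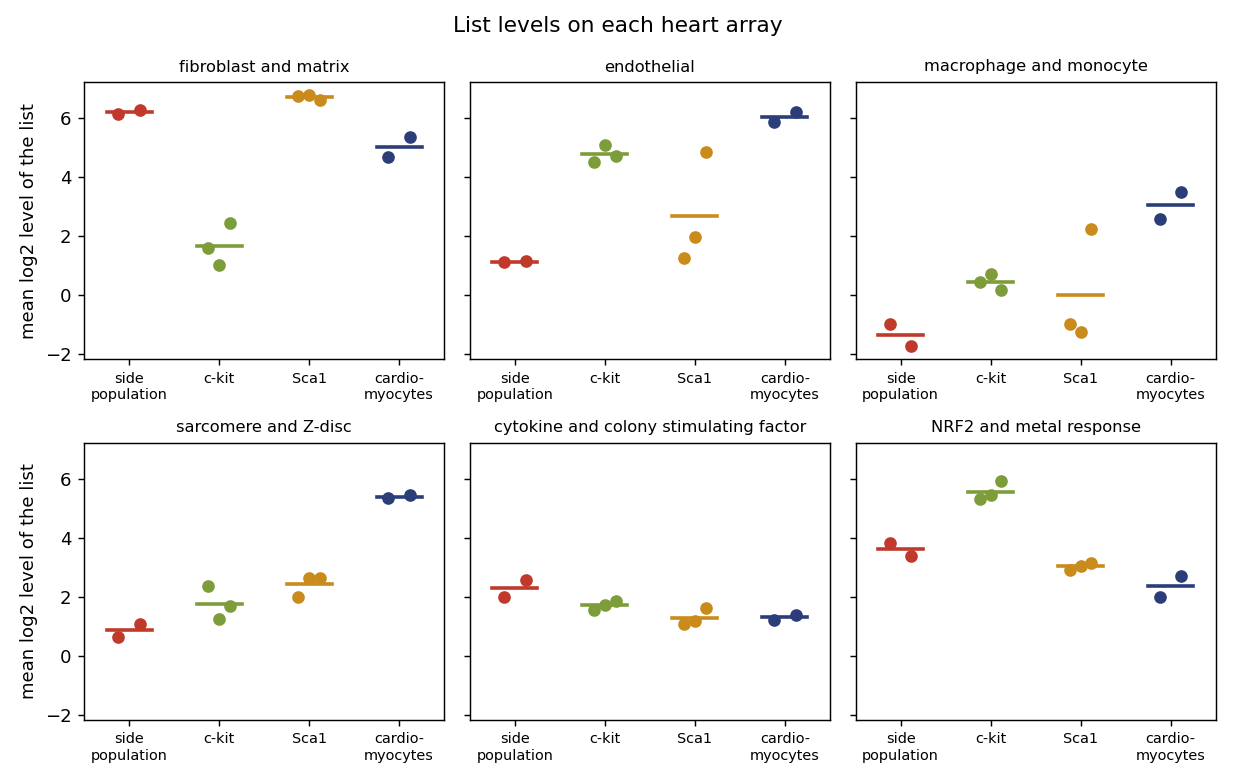
Mean quantile normalised log2 level over the measured genes of 6 lists on each heart array (points) with group means (lines), for the side population, heart c-kit cells, heart Sca1 cells and cardiomyocytes. The endothelial list stood at 1.12 and 1.13 in the side population, against 5.87 and 6.22 in cardiomyocytes, and the fibroblast list at 6.12 and 6.28, against 4.66 and 5.36.

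Macrophage and monocyte genes gave 8 lower and 0 higher calls among 20, against 3.29% of all genes called lower, with 19 negative differences and a median of -5.48. Laptm5, a lysosomal membrane protein of blood cells, read 5 and 4 in the side population, against 832 and 6498 in cardiomyocytes, and fell by 8.42 ± 0.86 (adjusted p = 0.000185). Mrc1, the mannose receptor of resident macrophages, read a fill value and 7, against 550 and 4217 (-8.49 ± 1.58, adjusted p = 0.00907). The complement chain C1qa read a fill value and 6, against 484 and 5823 (-8.74 ± 2.19, adjusted p = 0.0361). The list's median intensity was 9 and 8 on the side population arrays, against 339 and 2388.5 on the cardiomyocyte arrays. Of the 20 genes, 4 and 3 had at least 100 units in the side population, against 17 and 20 in cardiomyocytes, and the part of macrophage RNA in that preparation in these calls was not tested.

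Ptprc (CD45), the pan-leukocyte antigen, read 13 and 8 in the side population, against 593 and 2319, with a difference of -5.58 ± 1.15 (adjusted p = 0.0156), but its other probe differed by 1.12 in the opposite direction. Of the list, 3 genes were called lower with medians aligned, 3 without cardiomyocyte replicate 1 and 2 without cardiomyocyte replicate 2. Laptm5 kept its call without any 1 array. Mrc1 lost it without cardiomyocyte replicate 2 (adjusted p = 0.0677), C1qa without side population replicate 1 or either cardiomyocyte array (highest adjusted p = 0.162) and Ptprc without side population replicate 2 or either cardiomyocyte array (0.0809).

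In the mast cell list 2 of 10 genes were called, both lower, and in the neutrophil list 2 of 14 were called lower and 1 higher. Of all genes, 1.89% were called higher and 3.29% lower. Srgn (serglycin), the granule proteoglycan of blood cells, read 8 and 15 in the side population, against 929 and 2781, and fell by 6.02 ± 0.82 (adjusted p = 0.00131). Hdc, which makes histamine, read a fill value and 1, against 102 and 1065 (-7.13 ± 1.56, adjusted p = 0.0204), and these were 2 of 10 mast cell genes. S100a9, a calcium-binding protein of neutrophils, read 5 and 7, against 449 and 1988, and fell by 6.33 ± 0.96 (adjusted p = 0.00252). In the neutrophil list of 14, Cxcr2 was also called lower, with a fill value on both side population arrays and the call lost without any 1 of the 4 (highest adjusted p = 0.168), and the granule enzyme Mpo was called higher at 139 and 21, against 34 and 97 (2.79 ± 0.76, adjusted p = 0.0498). Mpo overlapped before scaling, and its call was lost without side population replicate 1 or either cardiomyocyte array (highest adjusted p = 0.226), that for Hdc without side population replicate 2 or cardiomyocyte replicate 2 (0.137). None of 14 lymphocyte and 5 red cell genes was called.

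The remaining lowest genes are not specific to muscle. Pik3cb, a catalytic subunit of phosphoinositide 3-kinase, had the smallest p of all 17710 genes, with a fill value on both side population arrays, against 1434 and 9452 in cardiomyocytes (adjusted p = 6.26e-06). Rbp7, a retinol-binding protein, was at a fill value on both as well, against 2261 and 11253, as were the transcription factor Dach1, against 1035 and 5220, and Scarf1, a scavenger receptor of endothelium, against 556 and 4756. Lrch1, a protein with leucine-rich repeats, read 1 and 1 in the side population, against 515 and 3683, and fell by 10.82 ± 1.14 (adjusted p = 0.000213). The kinase Pkn3 read 1 and 8, against 3950 and 20324 (-11.92 ± 2.06, adjusted p = 0.00592), Lmo7, a LIM domain protein of cell junctions, read 1 and 12, against 1679 and 12269 (-10.42 ± 1.60, adjusted p = 0.00279), and Mtss1, which links membranes to actin, read 2 and 7, against 2131 and 13040 (-9.92 ± 1.29, adjusted p = 0.000904).

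Further genes of this kind were Kif26a, of the kinesin family, at a fill value and 4, against 1685 and 4686 (-10.12 ± 1.63, adjusted p = 0.00377), and the transcript C130074G19Rik at 1 and 7, against 1160 and 6148 (-10.13 ± 2.03, adjusted p = 0.0138). The spots of all these genes were at the bottom of the side population arrays, so the sizes of the differences depend on how that end of the scale is set. The call for C130074G19Rik was lost without side population replicate 1 or either cardiomyocyte array (highest adjusted p = 0.0752), that for Rbp7 without either cardiomyocyte array (0.0548) and that for Scarf1 without cardiomyocyte replicate 2 (0.058). Pik3cb, Dach1, Lrch1, Pkn3, Lmo7, Mtss1 and Kif26a were called in each of those 4 fits.

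The dye pump named above, Abcg2, did not pass the test. Abcg2 read 23 and 1323 in the side population, against 436 and 3070 in cardiomyocytes. The 2 side population arrays disagreed by more than the groups did. The log2 difference was -1.66 ± 0.95 (adjusted p = 0.348), turning to 0.22 with medians aligned (median of all genes 1.34). Without side population replicate 1 it was 0.25 (adjusted p = 0.887), and without side population replicate 2 Abcg2 was called lower (-3.56, adjusted p = 0.0129), so the outcome rests on which of these arrays is used. Of 22 ABC transporters, 0 were called higher and 2 lower, against 1.89% and 3.29% of all genes, with a median of -0.61. Aligned medians gave 1.26 in its place (-0.09 relative to all genes), and the fit without side population replicate 1 gave 0.52. Abcg1, an exporter of cholesterol, read 3 and 10, against 227 and 1637 (-5.32 ± 1.04, adjusted p = 0.0122), and Abcc4, an exporter of organic anions, read 4 and 14, against 174 and 580 (-3.48 ± 0.88, adjusted p = 0.0372). Abcc1, a multidrug pump, read 1620 and 604, against 108 and 839 (2.98 ± 0.88, adjusted p = 0.065). Abcg1 lost its call without cardiomyocyte replicate 2 (adjusted p = 0.0925) and Abcc4 without side population replicate 1 or either cardiomyocyte array (highest 0.152).

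Stem and progenitor genes gave 1 call among 18, the lower Eng, against 3.29% of all genes called lower. Kit, the receptor that sorts c-kit cells, read 15 and 18 in the side population, against 118 and 707 (-1.50 ± 1.07, adjusted p = 0.461). Cd34, a sialomucin of progenitors and endothelium, was bright in both groups at 19592 and 21340, against 1948 and 15129 (1.13 ± 0.68, adjusted p = 0.37), as was the adhesion receptor Vcam1 at 45483 and 61749, against 2902 and 35325 (1.51 ± 0.81, adjusted p = 0.31). No call for Abcg2 or for a higher stem cell gene thus marked the labelled side population. Cdh5, Vwf, Laptm5 and Tnni3 read at most 25 units on both of its arrays, but other members of their lists were brighter there. At least 100 units were read by 10 and 9 of 23 endothelial genes and by 4 and 4 of 12 sarcomere genes. Of 20 macrophage and monocyte genes, 4 and 3 did so.

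Signalling lists were called at single genes, against 1.89% of all genes called higher and 3.29% lower. Bmp6, a bone morphogenetic protein, read 15 and 20 in the side population, against 750 and 4150, and fell by 5.14 ± 0.64 (adjusted p = 0.00074), in every fit that left out 1 array. It was the only call among 21 genes of TGF-beta and BMP signalling. With medians aligned, 10 of these were called higher and 1 lower, where 2386 and 231 of all 17710 genes were. Mfng, which adds sugars to Notch receptors, was the only one of 11 Notch genes called, at a fill value on both side population arrays, against 307 and 2517 (adjusted p = 0.000255). The Notch list had 10 negative differences and a median of -2.06. None of 20 Wnt genes was called, with a median of 1.35. Aligned medians gave 7 higher calls, where 2386 of all 17710 genes were called higher. The Wnt antagonist Sfrp1 read 2695 and 18412, against 326 and 4187 (2.53 ± 1.24, adjusted p = 0.261).

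Immediate early genes, which respond within minutes to stress or handling, were bright in both groups. Fosb read 64652 and 65441 in the side population, against 20409 and 65447 in cardiomyocytes, with both side population spots and 1 cardiomyocyte spot near the scanner's limit. Egr1 read 39476 and 64309, against 28567 and 65446. Of the 22 measured, 1 was called, the phosphatase Dusp2, at 61 and 78, against 975 and 2697 (-3.55 ± 0.96, adjusted p = 0.0473), and that call was lost without any 1 of the 4 arrays (highest adjusted p = 0.198). Of all genes, 3.29% were called lower. The list's median of -0.63 turned to 2.89 with medians aligned and to 1.63 on the deposited values (1.55 relative to all genes in both). No gene of 16 heat shock and unfolded protein genes and of 18 cell cycle genes was called.

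To see which differences set the side population apart from other heart progenitors, its arrays were compared with the mean of heart c-kit and heart Sca1 cells, a contrast in which cardiomyocytes play no part. It called 1530 of 17710 genes (8.64%), 561 higher (3.17%) and 969 lower (5.47%). Csf2 read 368 and 3583 in the side population, against 73, a fill value and 8 in heart c-kit cells and 19, 2 and 6 in heart Sca1 cells, a log2 difference of 7.66 ± 1.12 (limma adjusted p = 0.00104). Scd3 read 496 and 162, against 4, 2 and a fill value in c-kit cells and a fill value, 6 and 2 in Sca1 cells (7.81 ± 0.89, adjusted p = 0.000149). Scd3 read at most 6 on all 6 of those arrays, and Csf2 at most 73. Ccl7 was also higher than in the other progenitors (5.06 ± 0.76, adjusted p = 0.00135), with 71, 23 and 13 in c-kit cells and 765, 764 and 558 in Sca1 cells.

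Timp1, Lif and Ereg did not pass this second test. Timp1 read 1219, 397 and 5733 in c-kit cells and 822, 2212 and 1120 in Sca1 cells, and the side population was higher by 2.22 ± 0.80 (adjusted p = 0.0996). Hmox1 read 27421, 65439 and 65442 in c-kit cells and 5630, 7308 and 6761 in Sca1 cells. Its c-kit spots were at the scanner's limit on 2 of the 3 arrays, so no difference from these cells is given. Against the shared cardiomyocytes, the Timp1 difference was 6.69 for the side population, 5.12 for c-kit cells and 3.84 for Sca1 cells. In the same order, Ereg gave 4.52, 5.35 and 1.52, and Ccl7 6.69, -0.08 and 3.34. These values share the cardiomyocyte arrays and are set side by side only.

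Among the low transcripts, Tnni3 was lower than in the other progenitors (-4.56 ± 0.54, adjusted p = 0.000221), which read 801, 406 and 912 in c-kit cells and 3013, 5730 and 4915 in Sca1 cells, so these carried more troponin I signal than the side population. Bmp6 was at 1031, 4286 and 4012 in c-kit cells and 3206, 3296 and 2495 in Sca1 cells (-5.14 ± 0.53, adjusted p = 6.46e-05), and Laptm5 at 2753, 4099 and 6836 and at 360, 1437 and 2885 (-7.69 ± 0.71, adjusted p = 2.71e-05). For these 3 the side population lay below every other heart array, with at most 25 units, against at least 360. In this contrast 3 of 12 sarcomere genes were called lower (median -0.44) and 4 of 20 macrophage and monocyte genes (-1.13). That was so for 5.47% of all genes. Against cardiomyocytes the sarcomere median was -3.15 for the side population, -3.49 for c-kit cells and -2.94 for Sca1 cells. The macrophage median was -5.48, -1.63 and -3.10 in that order. Mrc1, C1qa and Nppa were not called here (limma adjusted p = 0.366, 0.579 and 0.757). Col3a1 was at 8, a fill value and a fill value in c-kit cells but at 3620, 2895 and 1755 in Sca1 cells, so that after scaling the side population (4.11 and 4.39) lay far above the c-kit arrays (-5.41 to -5.02) and within the range of the Sca1 arrays (4.07 to 4.91). Its difference from the mean of both was 4.57 ± 0.68 (adjusted p = 0.00121). Of the genes called against cardiomyocytes, 183 of the 334 higher and 425 of the 582 lower were called the same way here, and the 2 contrasts share the side population arrays.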

How the data were processed

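Values were deposited by the authors as log2 Cy5 intensity, centred on each array (as read from the values), and per the labels' protocols the RNA was amplified and labelled with Cy5. How background was corrected and why a repeated fill value stands in for some spots is not given in the sources used here. The lowest value off the fill corresponds to an intensity of 1, and on that footing 100% of spots under 200 were whole within 0.005, so unscaled intensities could be recovered. Depth is not defined for arrays; 2 arrays a group limit the precision.

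All 26423 probes were quantile normalised (limma 3.58.1, R 4.3.3). Of these, 20339 matched a RefSeq symbol or synonym, and each of 17710 genes was represented by its brightest probe on average. Group means of the 6 populations were fitted to all 16 arrays (residual degrees of freedom 10, prior 3.81, default moderation). Contrasts are side population minus cardiomyocytes and side population minus the mean of heart c-kit and Sca1 cells, with Benjamini-Hochberg adjustment over all genes and a call at an adjusted p under 0.05. Differences that involve fill spots are uncertain in size. The procedure was tested on simulated data with independent normal noise and the same spread per gene in every group. These held no fill values and no dim arrays, so the test does not cover those features.

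The members and the 31 gene lists were chosen with earlier results of these data known, so list counts are descriptive. Genes were named by a fixed rule: the given markers and gate genes; the 10 highest and 10 lowest calls with a measured spot in each group; up to 3 called members of each list, or 2 uncalled ones; and the 5 brightest calls at fill on both arrays of a group. Further list members were named after their values were seen. Of 87 genes the rule named, 66 were called. Promoter sequences are RefSeq's, with those of a single chromosome left out of the motif search and its background. Deviations of same-numbered arrays from their group means correlated at -0.01. With 2 arrays a group this is a single value, so it cannot decide whether replicate numbers mark a pairing. The labels do not say what they mark. The alternatives were 3 in scaling or floor, a filter, the mean over probes, trend and robust moderation, a replicate block, array weights, a fit of the compared groups only, and each array left out.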

Additional observations from a re-analysis of the deposited data

Results flagged for a closer look

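The effect against cardiomyocytes differed between the side population and the other heart progenitors, by the contrast of the side population with the mean of heart c-kit and Sca1 cells, for 19 of the marker, gate, highest and lowest genes. The genes were first picked for their difference from cardiomyocytes, and the side population arrays enter both contrasts. Higher in the side population were Scd3 (log2 difference 7.81), Csf2 (7.66), the poly(A) polymerase Papolb (7.20), Sez6l (6.32), Arnt2 (6.15), the transcript 9130008F23Rik (5.33) and the chemokine Ccl7 (5.06). Their limma adjusted p-values ran from 0.000149 for Scd3 to 0.0179 for 9130008F23Rik. Lower were Lrch1 (-8.22), Pkn3 (-7.35), Mtss1 (-7.13), Pdgfb (-7.12), Kif26a (-6.78), Lmo7 (-6.61), Actc1 (-6.54) and C130074G19Rik (-6.25), with the smallest adjusted p of 0.000144 for Lrch1. The titin cap Tcap (-4.99), the troponin Tnni3 (-4.56), Vwf (-4.23) and the leukocyte antigen Ptprc (-3.73) were lower by less, with an adjusted p of 0.037 for Vwf and 0.0255 for Ptprc. Most of these spots were at the bottom of the intensity range on 1 side of the contrast. A gene can pass this contrast with a mean while overlapping 1 of the populations averaged. After scaling, the side population overlapped the heart Sca1 arrays for Ptprc (-0.35 and -2.27, against 0.4, -0.89 and 2.94). The same held for Pkn3 (-6.3 and -2.27, against -3.21, 2.67 and 5.55) and C130074G19Rik (-6.3 and -2.56, against -0.54, -4.56 and 4.06). Pdgfb did not overlap, but heart Sca1 cells read only 8 and 7 on replicates 1 and 2, and 956 on replicate 3. Replicate 3 was the highest Sca1 array for each of these genes.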

How the results depend on the processing

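The 334 higher and 582 lower calls depended on how arrays were scaled and which arrays set the spread. Aligned medians gave 2386 and 231, raised low values 776 and 710, array weights 8 and 120, and the compared groups alone 0 and 0. A replicate block gave 254 and 509 and the other 4 alternatives that keep all arrays 318 to 371 and 458 to 675. Leaving out 1 array at a time gave 39 to 390 higher and 178 to 884 lower, the fewest without a cardiomyocyte array (39 and 221 without replicate 1, 120 and 178 without replicate 2), where the lone array is assumed to vary like the other groups. The 1530 calls against the other heart progenitors became 235 with array weights, 282 with the compared groups only, 1274 with the replicate block and 1120 to 2006 without 1 array. The cause of these shifts was not tested. Of the 66 called genes named by rule, 25 were called in all 4 fits without 1 array and 5 in none, 58 with the block, 18 with array weights and 0 with the compared groups only. Eng changed sign with aligned medians (0.26, against a median of 1.34 over all genes), and the other called named genes kept theirs in each alternative that tested them. Over all genes, 4 higher (Timp1, Ccl7, Epha3 and Dctpp1) and 82 lower calls held in every alternative but the fit of the compared groups only. Genes that the filter removed were counted as not held, although they were not tested there. Csf2, Scd3 and Sln are left out for this reason alone, since they lost their calls only with the compared groups alone. The dim side population arrays limit what can be said of genes near their floor.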

Other observations

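Single genes of other cell types were called as well, against 1.89% of all genes called higher and 3.29% lower. Wt1, a transcription factor of the epicardium, read 10 and 38 in the side population, against 1892 and 7318 in cardiomyocytes, and fell by 6.47 ± 1.35 (limma adjusted p = 0.0162), the only call among 12 epicardial and mesothelial genes. The adhesion protein L1cam read a fill value and 4, against 116 and 683 (-5.49 ± 0.87, adjusted p = 0.00329), the only call among 10 neural crest and Schwann cell genes. Mcam, of vessel walls, read 166 and 951, against 3112 and 23271 (-4.27 ± 0.87, adjusted p = 0.0145), the only call among 12 smooth muscle and pericyte genes. The calls for Wt1 and Mcam were lost without side population replicate 1 or either cardiomyocyte array (highest adjusted p = 0.0883 and 0.0858).

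In glucose metabolism, Pdk1, a kinase of pyruvate dehydrogenase, read 2 and 7 in the side population, against 129 and 1042, and fell by 4.79 ± 0.83 (adjusted p = 0.00592). The lactate carrier Slc16a3 read 465 and 2423, against 158 and 876, and was higher by 2.50 ± 0.66 (adjusted p = 0.0434). These were the only calls among 16 glycolysis and hypoxia genes, against 1.89% of all genes called higher and 3.29% lower. The call for Pdk1 was lost without cardiomyocyte replicate 2 (adjusted p = 0.0594) and that for Slc16a3 without side population replicate 2 or either cardiomyocyte array (highest adjusted p = 0.235). None of 10 adipocyte genes was called, and Cebpa, a transcription factor of fat and myeloid cells, read 1367 and 3118 in the side population, against 205 and 788 (3.00 ± 0.82, adjusted p = 0.0506). None of 6 housekeeping genes was called.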
